A study of Mus musculus with 16 samples.

Results

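The 3′-UTRs described here are those that carried a prediction of CPE-directed translational repression and no prediction of cytoplasmic activation. They were taken from the prediction recorded beside each annotated mouse 3′-UTR in the deposited tables. Of 30622 3′-UTRs with a gene symbol, 4007 (13.1%) met this rule, and they belonged to 2644 of 14925 genes. They are called repression-only 3′-UTRs or members below. A further 1792 3′-UTRs were predicted for activation and repression, 2223 for activation only and 22600 for neither. No read count entered the choice of members.

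CPEB4 RNA immunoprecipitation (RIP) and its matched Input were sequenced from bone marrow-derived macrophages (BMDMs). The cells came from femurs of adult mice of strain C57BL/6J 129 and were grown with L-cell conditioned medium as the source of M-CSF. One culture was wild-type (WT, number 76) and the other CPEB4 KO (number 73), a total knockout, and each was left untreated or given LPS, a bacterial membrane component that triggers inflammation, at 10 ng/ml for 9 h. The anti-CPEB4 antibody was used in WT and KO extracts alike, so the KO RIP holds RNA recovered where the antigen should be missing. Ribosomal RNA was depleted from the Inputs but not from the RIPs. Each of the 8 combinations of genotype, treatment and assay was 1 library, listed as 2 entries for lanes 7 and 8 of a flowcell, so there were no biological replicates. Every test below therefore compares the reads of a pair of libraries, not the conditions, and its intervals cover counting error only.

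CPEB proteins bind cytoplasmic polyadenylation elements (CPEs), which are U-rich motifs of the 3′-UTR. A CPE close to the poly(A) signal can direct cytoplasmic lengthening of the poly(A) tail, whereas a pair of CPEs can assemble a complex that holds the mRNA silent, and the same mRNA may pass from one state to the other. In macrophages, many cytokine and feedback-regulator mRNAs also carry AU-rich elements, through which tristetraprolin-type proteins promote deadenylation and decay.

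The elements that placed a 3′-UTR in this class can be read in its sequence. The consensus CPE was written as TTTTAT or as TTTTAAT. The non-consensus CPE was written as TTTTACT or TTTTCAT or TTTTAAAT or TTTTAAGT, and the poly(A) signal as AATAAA or ATTAAA within 30 bases of the end. All motifs were searched on the transcript strand only, and overlapping matches were allowed. Repression needed a pair of elements at most 50 bases apart with at least 1 consensus CPE, or 2 non-consensus elements with a Pumilio element (TGTANATA), while activation needed a consensus CPE within 100 bases of the poly(A) signal. As written, these rules do not account for every deposited prediction, since 173 (4.31%) of the 3′-UTRs predicted for activation had no poly(A) signal by this search. The stretches below, from mm10 with RefSeq's GRCm38.p6 sequence, show the closest pair of members on which the RIP comparisons turn, with both CPEs in capitals. The first 6 had a larger share of reads in the WT RIP than in the KO RIP in at least 1 treatment, the next 2 a larger share in the KO RIP, and Sdc4 changed sides with LPS.
Cpeb4, chr11:31935134-31935163, plus strand: ttcaactgTTTTATtTTTTATatttttaaa
Csnk1e, chr15:79418004-79418033, minus strand: tTTTTAATtaaagagcaaaactTTTTATta
Csrnp1, chr9:119971330-119971359, minus strand: ttggaTTTTATatgcatttTTTTATtgtct
Osm, chr11:4240912-4240941, plus strand: atttattgTTTTATtTTTTATcagtttaat
Pde8a, chr7:81333914-81333943, plus strand: ttacatgTTTTATttaTTTTATtagacatt
Il1a, chr2:129300125-129300154, minus strand: atgttatTTTTAAGTtaTTTTATctatgta
Apobec3, chr15:79907652-79907681, plus strand: tctttcTTTTATtatctTTTTATctcccct
Rbm33, chr5:28414737-28414766, plus strand: ttgtaTTTTATacctgtgaTTTTATctcac
Sdc4, chr2:164425205-164425234, minus strand: tTTTTATgatttttttttgttTTTTACTat
Il1a pairs a non-consensus with a consensus CPE, and Sdc4 holds the reverse order. Close pairs occur among the members with a larger share in the WT RIP (Cpeb4, Osm) and among those with a larger share in the KO RIP (Apobec3).

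The pair was tight in most members. The closest pair was separated by a median of 12 bases (quartiles 4 and 26). A pair of 2 consensus CPEs was present in 2693 members, a non-consensus element upstream of a consensus CPE in 1434, and the reverse order in 1318. In 1716 members every pair was made of consensus CPEs, in 1314 every pair held a non-consensus element, and 977 held both kinds. A pair of 2 non-consensus elements with a Pumilio element was present in 8 members. Each of these also held a pair with a consensus CPE, so none qualified through the Pumilio rule alone. One pair was found in 2253 members, 2 pairs in 785 and 3 or more in 969, with at most 55. Members held a median of 4 consensus CPEs (range 1 to 33). For comparison, 47.9% of all 3′-UTRs held a consensus CPE, 33.7% held a non-consensus CPE and 18.9% held a CPE pair.

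A poly(A) signal was found in 2588, where the nearest consensus CPE lay 101 to 6524 bases upstream of it (median 407). The other 1419 (35.4%) had no poly(A) signal near the annotated end. Of 3′-UTRs with no prediction, 46.9% lacked it as well, and of those predicted for activation, 4.31%.

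Members also differed from other 3′-UTRs in sequence beyond the CPE pair. They were long and AU-rich, with a median length of 1886 bases (quartiles 1138 and 3010) and a median GC content of 40.5% (36.7 to 45), against 671 bases and 46% over all 3′-UTRs. The class with both predictions was close in both, at 1631 bases and 39.9%, whereas the activation-only class was shorter, at 754 bases and 42.7%. TTTTGT, a U-rich variant element, occurred in 82.9% of members and in 45.3% of all 3′-UTRs. At least 2 ATTTA pentamers, the core of AU-rich elements, occurred in 77.9% against 36.4%, and the Pumilio element in 41.2% against 19.1%. Longer and more AU-rich 3′-UTRs hold more of any such motif, so these shares are a description of sequence composition.

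The library totals recovered from the deposited RPKM values were 1714630 to 3866559 reads. The counts summed over 3′-UTRs with a symbol were 467696 to 2492300. A read on overlapping annotated 3′-UTRs can count once for each, so these sums are not a strict part of the library. Set against the library totals, they came to 46.4% to 51.1% in the 4 Inputs. They came to 48.9% and 70.1% in the WT RIPs without and with LPS, and to 27.3% and 31.8% in the KO RIPs. Read levels below are therefore relative to the sum of 3′-UTR reads in each library. Among markers in the Inputs, the 17 macrophage genes found in the tables summed to 6234 to 10230 reads per 1000000 3′-UTR reads. The 13 marker genes of other cells (T and B lymphocytes, granulocytes, erythroid cells, fibroblasts, endothelium and others) summed to 2.15 to 20 on the same scale. Of these, 11 had at most 3 reads in every Input and 5 were at 0 in each.

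The KO was examined first through Cpeb4 itself, which is a member. Its 3′-UTR of 4102 bases (chr11:31931533-31935634) had 121 reads in the untreated WT Input and 258 with LPS, against 69 and 79 in the KO Inputs. In the RIPs it had 1392 and 1920 reads in WT against 120 and 320 in KO. Every WT library was above its KO counterpart. On the scaled log2 scale the WT over KO ratio was 1.31 untreated and 1.36 with LPS in the Inputs, and 1.69 (95% counting interval 1.42 to 1.96) and 1.07 (0.89 to 1.24) in the RIPs. After subtraction of the Input ratio, 0.38 and −0.29 remained, so with LPS the RIP difference of this mRNA was no larger than its Input difference. Reads on a 3′-UTR in a KO do not show whether the deletion lies within it.

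Repression-only 3′-UTRs took up a larger share of reads in the RIPs than in the Inputs, and the largest share in the WT RIPs. They held 20.3% and 20.5% of 3′-UTR reads in the WT Inputs (untreated and LPS) and 21.8% and 20.7% in the KO Inputs. In the KO RIPs the share was 25.4% and 24.8%. In the WT RIPs it was 29.4% (95% Wilson interval 29.4 to 29.5) and 29.5% (29.4 to 29.6). The excess of WT over KO RIP was thus larger than counting error in both treatments, and it was present without an excess in the WT Inputs. The class with both predictions ran as members did, with 8.98% to 9.7% in the Inputs. It held 11.3% and 11.1% in the KO RIPs and 13.5% and 13.4% in the WT RIPs. The pattern was thus not particular to repression-only 3′-UTRs. The 3′-UTRs with no prediction ran the other way, from 61% to 63.4% in the Inputs to 55.8% and 56.1% in the KO RIPs and 49% and 48.5% in the WT RIPs.

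**Figure D1:**
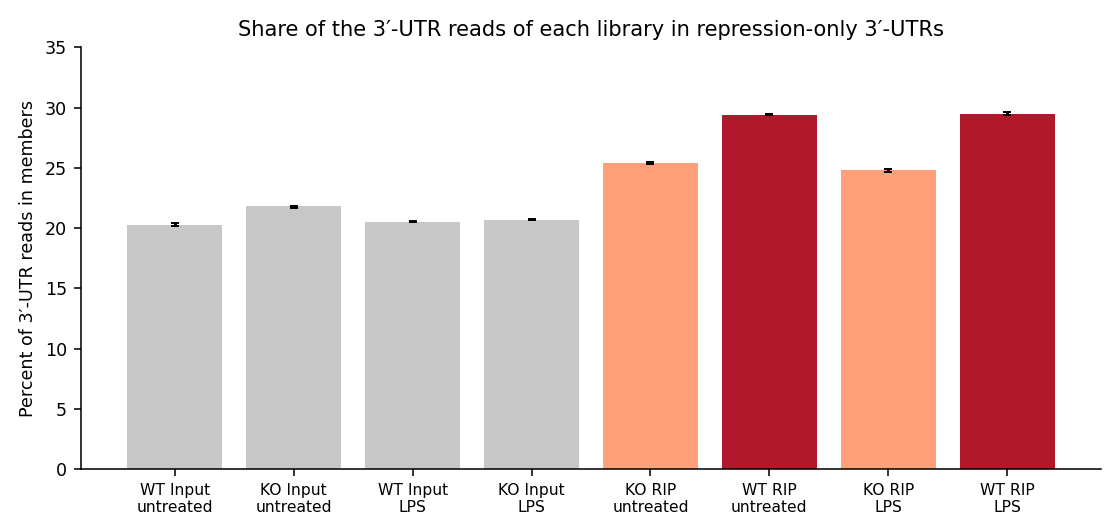
Percent of 3′-UTR reads that fell in the 4007 repression-only 3′-UTRs, for each of the 8 libraries; bars are single libraries and error bars 95% Wilson intervals, which cover counting error only. The Inputs sit between 20.3% and 21.8%, the KO RIPs at 25.4% and 24.8%, and the WT RIPs at 29.4% and 29.5%.

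Which of these mRNAs were recovered with CPEB4 was addressed by comparing the WT with the KO RIP. A 3′-UTR was called when the log2 ratio was over 0.5 in size with an adjusted p under 0.02, or over 1.2 with an unadjusted p under 0.02. The p came from a chi-square test on reads, with Benjamini-Yekutieli adjustment over all 3′-UTRs with at least 10 reads in the pair. In untreated BMDMs 2832 members had enough reads, of which 259 (171 genes) were called higher in the WT RIP and 127 (91 genes) higher in the KO RIP. That is 9.15% and 4.48% of the members tested, beside 5.82% and 9.79% of all 3′-UTRs tested. With LPS, 2819 were tested, with 483 (312 genes) called higher in WT and 128 (95 genes) in KO. These are 17.1% and 4.54% of those tested, beside 9.4% and 15.8% of all. Members were thus called in the WT direction more often than 3′-UTRs at large and in the KO direction less often, in both treatments, as a description without a test of the list. The class with both predictions had still more WT calls, 11.3% untreated and 20.2% with LPS, and fewer KO calls, 2.49% and 3.92%. The activation-only class had 6.94% and 10.7% in the WT direction, and 4.92% and 9.1% in the KO direction. The test has no replicate error in it. With an assumed biological coefficient of variation of 0.2, edgeR's exact test left 3.88% of tested members in the WT and 1.34% in the KO direction untreated, beside 2.83% and 3.37% of all, and 4.75% and 1.45% with LPS, beside 3.15% and 7.31%. With 0.4 it left 0.459% and 0.141% untreated, beside 0.283% and 0.171% of all, and 0.319% and 0.177% with LPS, beside 0.365% and 0.749%, so with LPS members were then not called in the WT direction more often than 3′-UTRs at large.

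The medians were ordered alike. The median WT over KO RIP log2 ratio of tested members was 0.17 untreated and 0.29 with LPS, against −0.13 and −0.10 over all tested 3′-UTRs and −0.33 and −0.35 for 3′-UTRs with no prediction. The 3′-UTRs with both predictions stood higher, at 0.29 and 0.38, and those with activation only lower, at 0.08 and 0.13. Members with and without a poly(A) signal differed little, with 0.14 and 0.17 untreated and 0.28 and 0.32 with LPS. After subtraction of the Input ratio the members' median was 0.35 untreated (1763 members with at least 10 reads in all 4 libraries) and 0.28 with LPS (2020 members), against −0.08 and −0.10 over all.

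**Figure D2:**
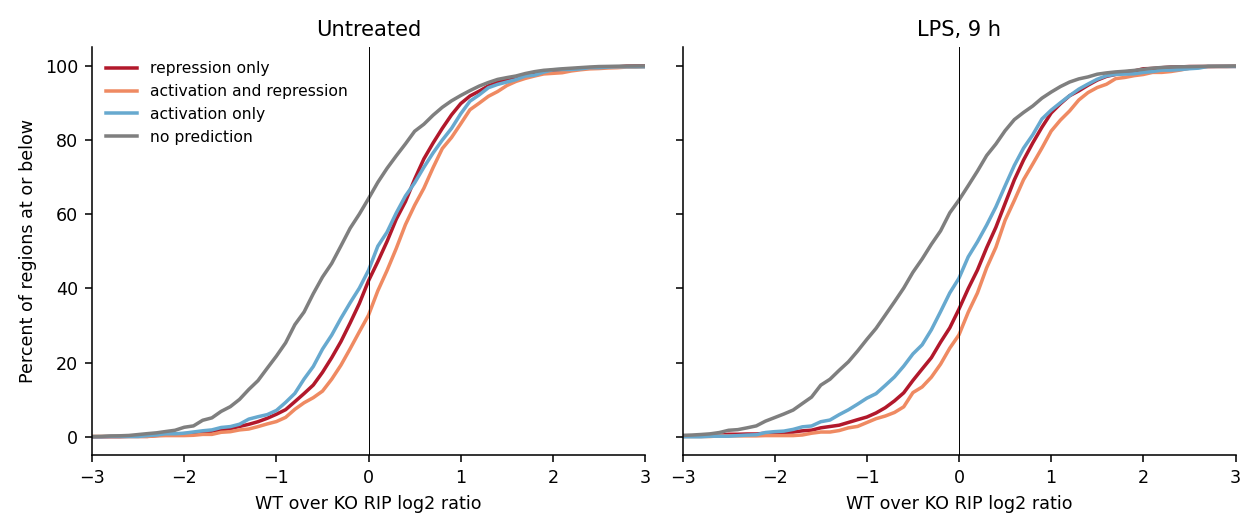
Cumulative percent of tested 3′-UTRs (vertical axis) at or below each WT over KO RIP log2 ratio (horizontal axis), by prediction class, in untreated and LPS-treated BMDMs. The repression-only curve, with medians of 0.17 and 0.29, lies to the right of the curve without a prediction (−0.33 and −0.35) and to the left of the curve with both predictions (0.29 and 0.38).

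The split of calls depended on the scaling. Relative to the values given here, every WT over KO RIP log2 ratio was moved up by 0.23 untreated and 0.34 with LPS under TMM size factors, by 0.11 and 0.16 under median-of-ratios factors, and by 0.84 and 1.14 under library totals. In untreated cells the members called higher in WT and in KO became 501 and 69 under TMM, 360 and 89 under median-of-ratios and 1323 and 16 under library totals. With LPS they became 958 and 58, 697 and 95, and 2048 and 9. Over all 3′-UTRs, TMM gave 1666 and 879 untreated and 3031 and 1429 with LPS, and library totals gave 4718 and 119, and 7883 and 176. A KO-direction value smaller in size than the shift turns sign under that scaling, whereas the distance between classes is the same under each.

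The distance from the 3′-UTRs with no prediction was present at every length and at every GC content. Within 5 length classes bounded by 87, 986, 1578, 2288, 3345 and 23858 bases, the members' median exceeded that of 3′-UTRs with no prediction by 0.32 to 0.46 untreated and by 0.43 to 0.68 with LPS. Within 5 classes of GC content it did so by 0.17 to 0.63 and by 0.27 to 0.61. The difference was smallest between 35.7% and 39% GC and largest above 46.1%. GC content moved with the ratio within members as well. With LPS, the median fell from 0.47 in the most AU-rich class to −0.00 in the most GC-rich class, and untreated it fell from 0.21 to 0.07 over the first 4 classes and was 0.16 in the last. From the class with both predictions, members differed by −0.20 to 0.04 untreated and −0.14 to −0.05 with LPS in GC classes, and from the activation-only class by −0.04 to 0.11 and 0.01 to 0.15. In length classes the differences were −0.43 to −0.03 untreated and −0.23 to 0.03 with LPS from the class with both predictions, and −0.16 to 0.08 and −0.09 to 0.25 from the activation-only class.

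**Figure D3:**
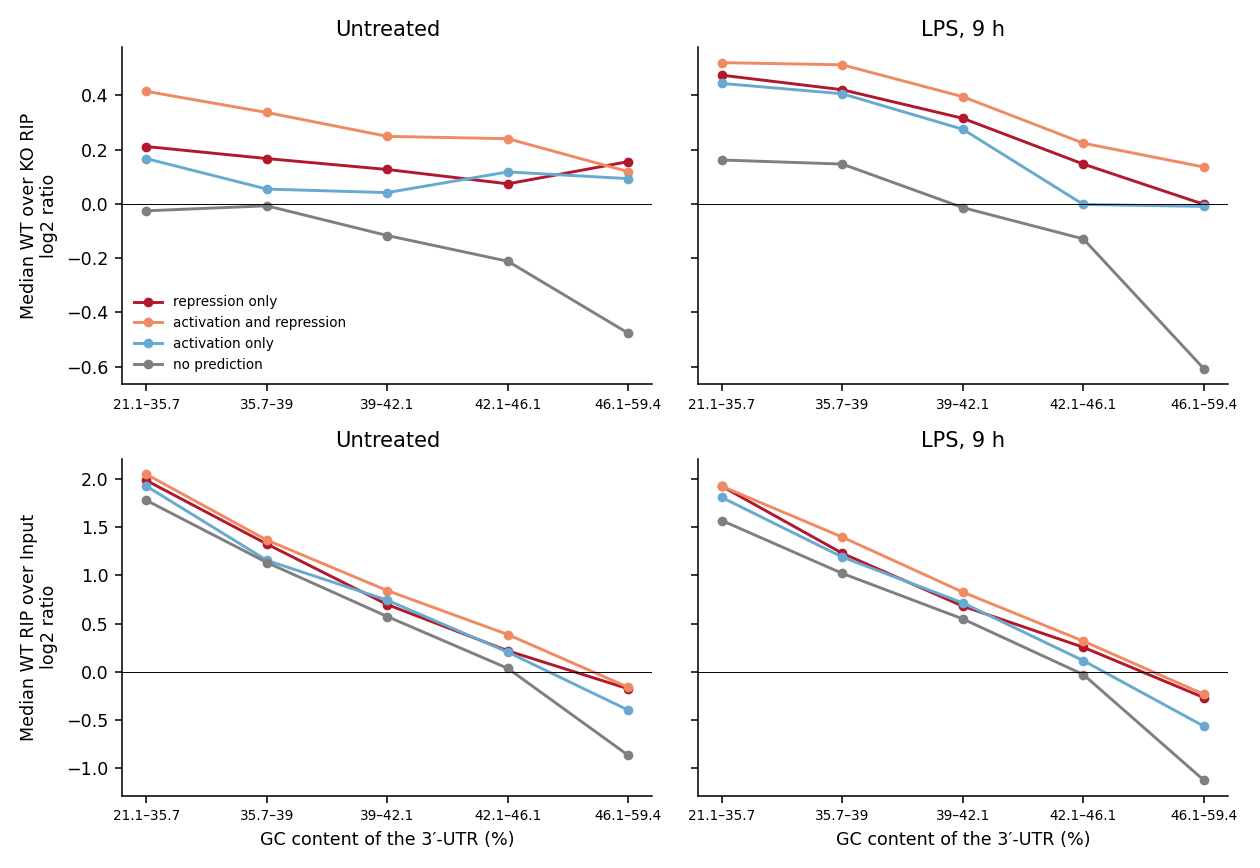
Median WT over KO RIP log2 ratio (upper panels) and median WT RIP over Input log2 ratio (lower panels) against 5 classes of GC content of the 3′-UTR, in percent, for each prediction class; points are medians over tested 3′-UTRs of 1 pair of libraries. In the upper panels the line without a prediction lies below the members in each class, by 0.17 to 0.63 untreated and 0.27 to 0.61 with LPS, and in the lower panels all lines fall together with GC content, for members from 1.99 to −0.18 untreated.

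More elements went with a somewhat higher ratio. Members with 1, 2 and 3 or more pairs had medians of 0.07, 0.24 and 0.22 untreated and 0.21, 0.37 and 0.38 with LPS. Members with TTTTGT had 0.17 and 0.31, against −0.00 and 0.18 without it. Across member genes, 1 region per gene, the Spearman correlation of the ratio with the number of consensus CPEs was 0.13 untreated (1274 genes) and 0.19 with LPS (1428 genes), and 0.19 and 0.23 with their number per base. With GC content it was −0.13 and −0.25, with length −0.05 and −0.03. The points share libraries and base composition, and the correlations are weak.

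Position against the poly(A) signal, which separates the repression class from the activation classes, went with little difference of the medians at the boundary. In 330 members the nearest consensus CPE lay 101 to 150 bases before the signal. Of these, 242 tested untreated and 243 with LPS had median ratios of 0.14 and 0.39. In 548 3′-UTRs with both predictions the nearest CPE lay 51 to 100 bases before it, and the 376 and 375 tested had 0.22 and 0.36. WT-direction calls were 9.5% and 9.31% untreated, and 26.3% and 20.3% with LPS, in that order. Across members, the correlation of the ratio with the distance from the nearest consensus CPE to the signal was −0.03 and −0.08. With LPS the members' median was 0.37 at 101 to 200 bases, 0.29 at 201 to 400, 0.25 at 401 to 800 and 0.17 beyond. Untreated it was 0.14, 0.09, 0.13 and 0.17, with no such fall.

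The calls in the WT direction reached across functions. In untreated BMDMs, the largest called ratio, among members that reached 50 reads in the WT RIP and 10 in both Inputs, belonged to Ccl3, a chemokine that recruits inflammatory cells. Its 3′-UTR had 123 reads in the WT RIP and 4 in the KO RIP (log2 ratio 2.80, interval 1.51 to 4.09), with 36 and 34 in the Inputs. Csnk1e, a casein kinase of the circadian clock and Wnt pathway, had 193 against 7 (2.77, 1.75 to 3.79), with 59 and 89 in the Inputs. The Input log2 ratios were 0.59 (−0.07 to 1.26) for Ccl3 and −0.07 (−0.54 to 0.40) for Csnk1e, and neither was called in the Inputs. Next were Tbp (70 against 2), Csrnp1, a nuclear protein (63 against 2), Il1rn (319 against 15), Cldnd1 (172 against 8), Tshz1 (136 against 7) and Zdhhc8, a palmitoyltransferase (138 against 8). Their log2 ratios lay between 2.12 and 2.73. For Tbp, the TATA-binding protein, this was a region of 644 bases. A far longer member 3′-UTR of 11596 bases, which starts at the same base and so contains it, had 107 against 36 reads and a ratio of −0.29. The nested regions thus gave ratios of opposite sign. Of the 4 member regions of Tbp, 3 were called higher in the WT RIP with LPS. Ccl3 had 738 WT and 195 KO RIP reads with LPS (0.40, not called), and its Input-corrected ratio was then 0.09. Il1rn was not called with LPS either (−0.22). Csnk1e (1.58), Csrnp1 (0.92), Cldnd1 (1.74), Tshz1 (2.10) and Zdhhc8 (1.29) were called in the WT direction with LPS too.

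By the same rule the highest with LPS was Osm, the cytokine oncostatin M, with 81 WT and 5 KO RIP reads (2.26, 1.06 to 3.45) and 48 and 20 Input reads. Gabpb1, a subunit of an ETS-family transcription factor, had 189 against 13 (2.25), and Psip1, a chromatin reader, 317 against 27 (1.99). Pde8a, a cAMP phosphodiesterase, had 132 against 11 (1.95, 1.10 to 2.81). The Input ratio was itself above 0 for all 4, at 0.89 for Osm, 0.62 for Gabpb1, 1.08 for Psip1 and 0.41 for Pde8a, and was called for none of them. The best-measured was Slc7a11, the cystine transporter of the antioxidant response, with 1980 WT and 187 KO RIP reads (1.88, 1.67 to 2.10). Its Inputs had 819 and 313 reads, a log2 ratio of 1.05 that was itself called in the WT direction. The Input-corrected ratio was 0.83. The others were Tshz1 (306 against 24), Tusc1 (73 against 6) and Taf12, a subunit of the basal transcription machinery (131 against 12).

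Actb, the cytoskeletal actin often used as a reference, led the well-measured members of the other direction. Its RIP reads were 1880 in WT and 1321 in KO without LPS and 2360 and 1911 with it, giving log2 ratios of −1.32 (−1.43 to −1.22) and −1.21 (−1.30 to −1.12). The sign held under each scaling, but library totals move the ratios up by 0.84 and 1.14, which takes up most of the LPS ratio. Among called members that reached 50 reads in the KO RIP and 10 in each Input, the lowest ratios untreated were those of Pid1, an adaptor of insulin and lipoprotein receptor signalling (60 against 60 reads, −1.83), Apobec3, a cytidine deaminase that restricts retroviruses (109 against 102, −1.74), Rbm33 (105 against 75, −1.35) and Adgre1, the macrophage marker F4/80 (117 against 79, −1.27). Equal reads gave a negative ratio because the WT RIP held more 3′-UTR reads. The untreated Input ratios were −0.72 for Pid1, −0.46 for Apobec3, −0.09 for Rbm33, −0.76 for Adgre1 and 0.28 for Actb, and none was called. With LPS the Input ratio of Apobec3 was −0.70 and was called in the KO direction. By the same rule, with LPS Arhgef12 (279 against 287 reads, −1.56), Pid1 (−1.47) and Fgd6, a Cdc42 exchange factor (83 against 73, −1.33), were lowest. Apobec3 and Rbm33 hold close consensus pairs, as printed above.

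**Figure D4:**
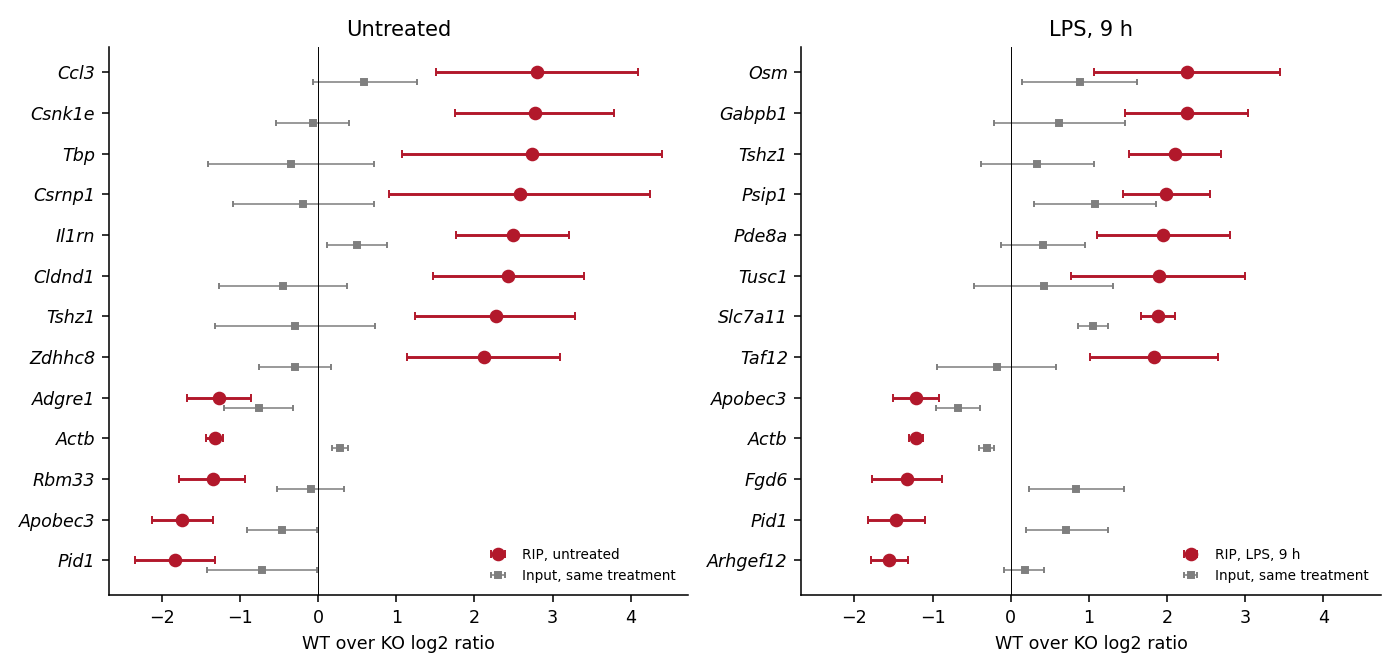
WT over KO log2 ratio (horizontal axis) in the RIPs (red circles) and in the Inputs of the same treatment (grey squares) for the 8 highest and 5 lowest called members of each treatment; bars are 95% counting intervals of 1 pair of libraries. These members were chosen for their RIP ratios. Untreated, the RIP ratios of the upper 8 lie between 2.12 and 2.80.

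The gene groups used here held from 1 to 31 member genes each. Beside their RIP calls stand the shares over all tested 3′-UTRs, 5.82% in the WT and 9.79% in the KO direction untreated. With LPS these were 9.4% and 15.8%. Over tested members they were 9.15% and 4.48% untreated, and 17.1% and 4.54% with LPS. No group was tested as a set, and in a small group 1 call can lie near these shares. Where a group had 5 or fewer calls, the genes called are named, some of them after their values were seen. The group of mRNA-binding, deadenylation and polyadenylation factors had most members, 31 of the 66 genes found in the tables. Of 30 tested, 6 were called higher in the WT RIP untreated and 16 with LPS, and none was called higher in the KO RIP. Their median log2 ratios were 0.32 and 0.64, beside −0.13 and −0.10 over all 3′-UTRs. In the Inputs 1 of the 30 was called in the WT direction in each treatment (Cpeb4), with 2 in the KO direction untreated (Rc3h1 and Rc3h2) and 1 with LPS (Cpeb3). The following members of the group were picked after their values were seen, except Cpeb4, Zfp36l1, Zfp36l2, Btg1 and Ago1. Zfp36l1, a tristetraprolin family member, had 1584 RIP reads in WT and 283 in KO before LPS (0.65) and 582 and 100 after it (1.01). Its relative Zfp36l2 had 329 and 64 with LPS (0.83) and was not called untreated (0.28). Btg1, a partner of the CCR4-NOT deadenylase, had 831 and 198 untreated (0.23, not called) and 1155 and 237 with LPS (0.76), and Btg2 804 and 99 (1.18) and 974 and 155 (1.13). The deadenylase subunit Cnot7 had 242 and 19 (1.77) and 613 and 94 (1.18). The nuclear poly(A) polymerase Papola had 412 and 54 (1.08) and 654 and 114 (0.99). Ago1, of the microRNA pathway, had 502 and 119 (0.23) and 856 and 283 (0.08) and was called in neither treatment.

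Negative feedback regulators of TLR signalling divided. Of 13 member genes, 11 were tested untreated, with 5 called in the WT direction (Il1rn, Spred1, Spred2, Zfp36l1 and Spry2) and 1 in the KO direction (Nfkbie). With LPS, 12 were tested, with 4 called in the WT direction (Spred1, Spred2, Zfp36l1 and Zfp36l2) and 3 in the KO direction. Spred1, an inhibitor of Ras-MAPK signalling, had 1264 RIP reads in WT and 170 in KO before LPS (1.05, 0.82 to 1.28) and 2352 and 574 after it (0.52, 0.39 to 0.65). Its relative Spred2, picked after its values were seen, had 127 and 13 (1.36) and 499 and 98 (0.82). The 3 called in the KO direction with LPS were Tnfaip3, the deubiquitinase A20 (1027 and 545 reads, −0.60), Tnip3 (883 and 473, −0.62) and Nfkbie, an inhibitor of NF-κB (273 and 192, −1.01). All 3 turn positive under library totals, where the shift is 1.14. The group medians were 0.39 and 0.54.

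Among cytokines, chemokines and their receptors, 15 genes were members. Of 13 tested untreated, 5 were called in the WT direction (Ifnar1, Tgfbr1, Ccl3, Ccl7 and Ifngr1) and 2 in the KO direction (Il6st and Ccr2). Of 14 with LPS, 6 and 1 were called, the latter Ccr2 again (medians 0.65 and 0.55). Ccr2, a monocyte chemokine receptor, had 25 WT and 45 KO reads in the untreated RIPs (−2.66) and was called in the KO direction in the Inputs of both treatments too. Ifngr1, of the interferon γ receptor, had 259 against 24 (1.55) and 125 against 13 with LPS (1.65). Cxcl2, a neutrophil chemokine, had 54 RIP reads in WT and 9 in KO before LPS (0.63, not called) and 1169 and 211 after it (0.95, 0.74 to 1.16). Its LPS Inputs had 401 and 168 reads and were called in the same direction. Il1a, the alarmin interleukin 1α, had no RIP reads untreated and 1185 and 162 with LPS (1.35, 1.11 to 1.58). Its LPS Inputs of 750 and 206 reads differed by more, so the Input-corrected ratio was −0.18. Ifnar1, a subunit of the type I interferon receptor, had 502 and 89 untreated (0.65, called) and 1246 and 335 with LPS (0.38, not called). Ccl9, the cytokine member with most Input reads, had 5612 and 2083 with LPS (−0.09) and was not called.

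Of 15 members in TLR, NF-κB and MAPK signalling, 1 of 14 tested was called untreated (Tirap) and 2 of 15 with LPS (Map3k2 and Tlr4), all in the WT direction (medians 0.07 and 0.41). Mapkapk2, the kinase downstream of p38, had 640 and 166 reads untreated (0.11) and 1918 and 941 with LPS (−0.49), called in neither. Of 6 interferon-response members, 5 were tested, with 1 called in WT untreated (Jak2, 81 and 9 reads), and with LPS 1 in WT (Jak2, 892 and 202) and 2 in KO, Ifit2 (2195 and 1152, −0.59) and Stat2 (766 and 390, −0.54) (medians −0.28 and 0.00). Hypoxia, glycolysis and mTOR genes gave 2 WT calls of 10 untreated (Slc2a1 and Vegfa), and of 9 with LPS 3 WT calls (Slc2a1, Vhl and Arnt) and 1 KO call (Pgam1, of glycolysis) (medians 0.44 and 0.37). Slc2a1, the glucose transporter GLUT1, had 164 and 17 (1.36) and 1217 and 263 (0.69), and Vhl, which targets HIF for degradation, had 858 and 177 with LPS (0.75). Vegfa, an angiogenic factor, had 323 and 48 untreated (0.89, called) and 548 and 148 with LPS (0.37, not called). Hif1a itself had 239 and 48 (0.46) and 1855 and 744 (−0.20) and was called in neither.

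Membrane traffic genes gave 4 WT calls (Tmed2, Rab18, Rab22a and Arf4) and 1 KO call of 15 untreated, and 3 WT calls (Tmed2, Rab18 and Sec22b) and 1 KO call of 15 with LPS (medians 0.40 and 0.29). The KO calls were Rab7 of late endosomes untreated (786 and 318, −0.53) and the small GTPase Arf3 with LPS (1450 and 793, −0.65). Of the cell cycle genes, the classic context of CPEB action, 1 was called in each treatment, of 8 and 7 tested (medians 0.19 and 0.13). It was Ccnd1, cyclin D1, with 1234 and 228 reads untreated (0.60) and 538 and 132 with LPS (0.50). No KO call was made there. Reference genes gave 2 KO calls of 5 untreated, Actb and Hprt, and 1 of 5 with LPS, Actb (medians −0.29 and −0.13). Macrophage markers gave 3 KO calls of 5 in each treatment, Ctsb, Lgmn and Adgre1, with medians of −0.61 and −0.55. Under library totals Lgmn turned positive in both treatments (0.23 and 0.59) and Ctsb with LPS (0.40). The single member among markers of other cells, Cd3e, had 0 reads in each Input and was not tested.

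Few of these mRNAs were called between the WT and KO Inputs, where genotype and culture cannot be told apart. Untreated, 14 of 2562 members tested (0.546%) were called higher in the WT Input and 62 (2.42%) in the KO Input, beside 1.01% and 1.37% of all 3′-UTRs, with a median log2 ratio of −0.16 against −0.03 over all. With LPS, 35 of 2586 (1.35%) and 59 (2.28%) were called, beside 1.43% and 1.33%, with medians of 0.01 and 0.03. Under median-of-ratios factors the LPS counts were 26 and 87, beside 162 and 300 of all 3′-UTRs. In the most AU-rich class of members the untreated Input median was −0.49, and in the most GC-rich class −0.02. Base composition thus moved with the untreated Input ratio, and its part in it was not tested.

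Within a genotype, the RIP was set against its Input. In WT, 1127 of 2814 members tested (40%) were called higher in the untreated RIP and 183 (6.5%) in the Input, beside 22.6% and 21.6% of all. With LPS the counts were 1255 (44.2%) and 231 (8.14%) of 2839, beside 23.6% and 28.1%. In KO, 586 (22.5%) and 120 (4.61%) of 2603 were called untreated, beside 14% and 8.57%. With LPS, 620 (24.2%) and 117 (4.57%) of 2559 were called, beside 15.8% and 11.8%. In the class with both predictions, 46.5% untreated and 47.4% with LPS were called higher in the WT RIP. In KO these shares were 21.7% and 24%. The members' median was 0.74 and 0.69 in WT and 0.35 and 0.37 in KO, against 0.02, −0.08, 0.01 and −0.02 over all. Members thus stood above other 3′-UTRs in the RIP in the absence of the antigen too. Under library totals the KO counts turned to 152 (5.84%) in the RIP and 665 (25.5%) in the Input untreated, beside 4.4% and 33.4% of all, and to 206 (8.05%) and 590 (23.1%) with LPS, beside 5.62% and 34.9%.

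GC content moved with this ratio in each prediction class. Untreated, the WT RIP over Input median of members fell from 1.99 in the class of 21.1% to 35.7% GC to −0.18 in the class of 46.1% to 59.4%, and in KO from 1.2 to −0.28. Within GC classes the members' KO median was not above that of 3′-UTRs with no prediction except in the most GC-rich class. In the first 4 classes it was 1.2, 0.69, 0.37 and 0.02 untreated, against 1.31, 0.77, 0.59 and 0.18, and it was below with LPS too. The members' WT median was above in each of the 5 classes in both treatments. Ribosomal depletion was done on Inputs alone, so assay and library preparation cannot be told apart here. The WT over KO RIP ratio compares libraries of 1 kind.

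The Inputs of LPS-treated and untreated cells were also compared. In WT, 343 of 2567 tested (13.4%) rose and 439 (17.1%) fell between the 2 libraries, beside 12.9% and 15.4% of all. In KO, 317 of 2675 (11.9%) rose and 670 (25%) fell, beside 13.7% and 19%. The medians were −0.09 and −0.32, against −0.07 and −0.18 over all. Under TMM the WT counts became 418 and 362, beside 2512 and 1946 of all, and the KO counts 420 and 546, beside 2746 and 2367. Under median-of-ratios the KO counts were 424 and 546, beside 2783 and 2354. In bulk samples, fewer cells expressing an mRNA and less RNA per cell cannot be told apart.

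The largest rises were those of effectors of activated macrophages. The reads that follow are raw. The 3′-UTR sums were 929054 untreated and 1897360 with LPS in the WT Inputs, and 1325968 and 1502378 in the KO Inputs. Raw changes are therefore not comparable between the genotypes. Nos2, the inducible nitric oxide synthase, went from 0 reads to 598 in WT and from 0 to 540 in KO. Acod1, which makes itaconate, went from 2 to 1213 and from 2 to 848. Il1a went from 0 to 750 and from 1 to 206, Cd38, an NAD-consuming ectoenzyme, from 0 to 489 and from 2 to 375, and Slc7a2, an arginine transporter, from 8 to 1955 and from 8 to 1294. The RIPs of these genes divided. Il1a and Slc7a2 (3723 and 821 reads, 0.66) were called in the WT direction with LPS, Acod1 (1672 and 955, −0.71) in the KO direction, and Nos2 (907 and 398, −0.33) and Cd38 (686 and 195, 0.29) in neither. The largest falls were those of St6gal1, a sialyltransferase, from 209 to 1 and from 315 to 1, Rnf150 (388 to 15 and 521 to 10), Reps2 (93 to 5 and 132 to 1), Gcnt1, a glycosyltransferase (117 to 10 and 208 to 5), and Cd300a, an inhibitory receptor (174 to 15 and 217 to 12). Of these, St6gal1 was called in the untreated RIPs, with 423 WT and 58 KO reads (1.01). The group of cytokines and receptors had 9 rises and 5 falls among 14 tested in WT, and all 5 interferon-response members tested rose in both genotypes. Zfp36l1 fell from 331 to 141 in WT and from 608 to 167 in KO, and Zfp36l2 from 323 to 87 and from 487 to 61.

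Calls of the 2 treatments were set side by side. Of the WT-direction calls, 158 (108 genes) were shared, which was 61% of the untreated and 32.7% of the LPS calls, beside 59.7% and 35.3% over all 3′-UTRs. Of the KO-direction calls, 52 (37 genes) were shared, 40.9% and 40.6%, beside 53.3% and 31.5% over all. Across 1186 member genes with at least 10 reads in each RIP, the Spearman correlation of the untreated and LPS ratios was 0.69, beside 0.79 across 4460 genes of all classes. For the Input ratios of 1212 member genes it was 0.15, beside 0.11 across 5468 genes. The cells of a genotype came from 1 culture, so the treatments are not independent samples of it.

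The difference of the WT over KO RIP ratio between treatments was tested on the reads of the 4 RIPs, with Benjamini-Hochberg adjustment over 7844 3′-UTRs at 0.05. Of 1831 members tested, 41 had a higher ratio with LPS and 23 a lower one, beside 83 and 83 of all. Sdc4, the heparan sulphate proteoglycan syndecan 4, was the single member called on opposite sides. Its RIP reads were 2423 in WT and 349 in KO without LPS (0.96, 0.80 to 1.12) and 5191 and 2826 with it (−0.64, −0.71 to −0.57), a difference of −1.60 (adjusted p = 5.1e-68). With LPS its ratio was 0.50 under library totals. Its Inputs had 908 and 1095 reads untreated and 3554 and 4186 with LPS, where the Input ratio of −0.57 was itself called in the KO direction and the Input-corrected ratio was −0.07. Il1rn, the interleukin 1 receptor antagonist, had 319 and 15 RIP reads before LPS and 4014 and 1630 after it, a difference of −2.71 (adjusted p = 3.4e-10). With LPS its ratio was −0.22, not called, and it was 0.92 under library totals. Its Inputs rose from 109 to 2845 reads in WT and from 110 to 2696 in KO, which are scaled log2 ratios of 3.66 and 4.42. Spred1 (−0.54, adjusted p = 0.0074) and Mapkapk2 (−0.60, adjusted p = 0.0024) also had a lower ratio with LPS, and Btg1 a higher one (0.53, adjusted p = 0.03). For Il1rn and Sdc4 the KO RIP level rose with LPS more than the WT RIP level did.

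**Figure D5:**
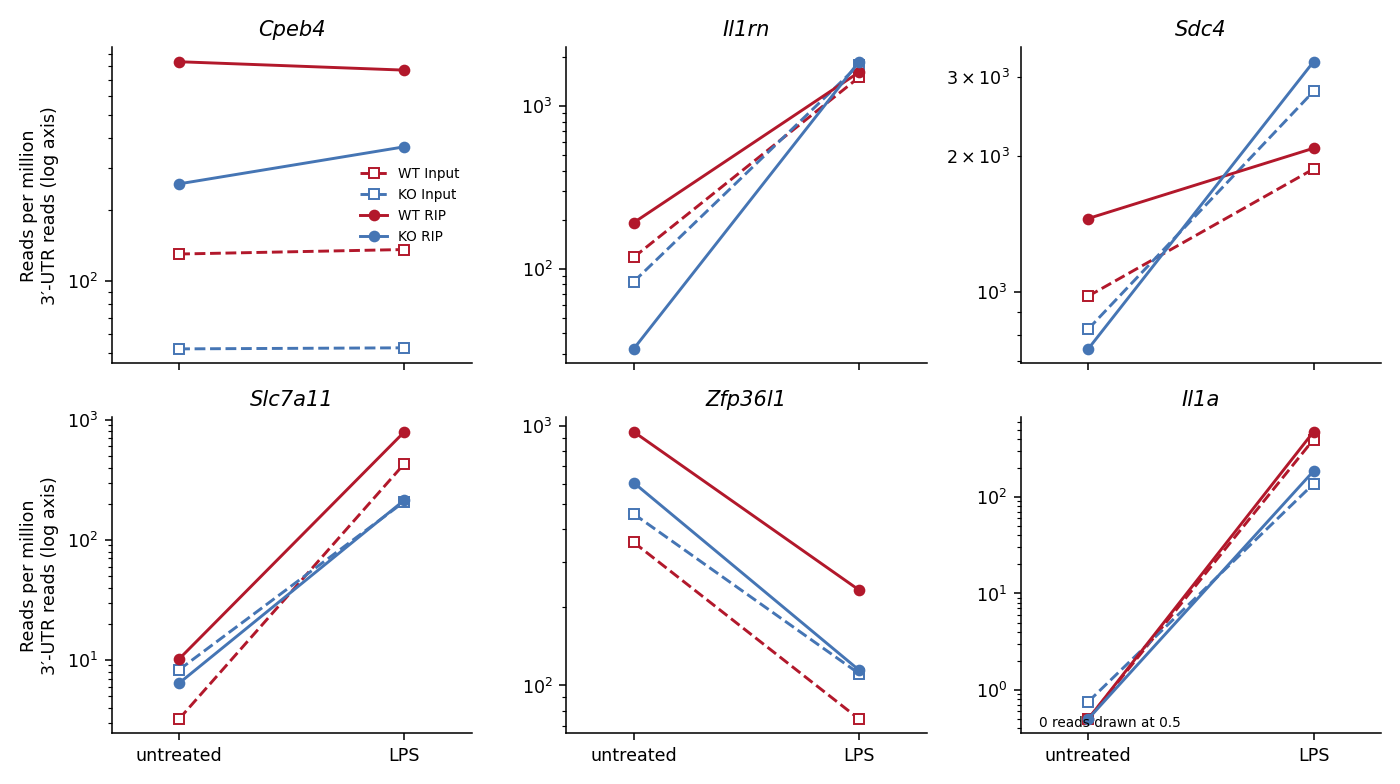
Reads per 1000000 3′-UTR reads (log axis; 0 reads drawn at 0.5) in untreated and LPS-treated BMDMs for 6 members, with WT in red, KO in blue, RIP as filled circles and Input as open squares; each point is 1 library. Cpeb4 and Zfp36l1 are higher in the WT than the KO RIP in both treatments, whereas on this scale the RIP lines of Il1rn and Sdc4 cross between untreated and LPS. Under library totals their LPS ratios are 0.92 and 0.50, so the lines would not cross.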

How the data were processed

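The authors mapped single-end reads with Bowtie2 2.2.2 and scored RIP against Input with MACS 1.4.2, per the submitters' processing notes, on mm10. Reads per annotated 3′-UTR were deposited as raw counts beside RPKM values made by the authors. The deposited RPKM values served only to recover library totals, against which the 3′-UTR sums were set, and for 1 alternative scaling. Columns of ratios, p-values and MACS scores hold the authors' own comparisons and were not used, and the study's criterion on MACS score was therefore left out. The 4 tables held the same counts and predictions for 8 libraries, each the sum of lanes 7 and 8. Of 31117 rows, 495 without a symbol (0.902% to 1.04% of reads) were left out, 56 of them with this prediction.

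Log2 ratios were computed from counts scaled to the 3′-UTR sum after adding 1 read. A Pearson chi-square test of each region against all other 3′-UTR reads, two-sided, with Benjamini-Yekutieli adjustment, was run where a pair had at least 10 reads. The thresholds are those of the study, which set them on RPKM ratios, that is per library total. Here they were set on ratios scaled to the 3′-UTR sum. Counting intervals are 95%, read shares have Wilson intervals, and PCR reads are not independent molecules. For all 30622 3′-UTRs, the length and the numbers of consensus CPEs, non-consensus CPEs and Pumilio elements from GRCm38.p6 equalled the deposited ones. The number of poly(A) signals was not compared. With a poly(A) signal required, the stated rules gave repression for 2588 of the 4007 members and 4324 of the 5799 3′-UTRs deposited with it, and the deposited predictions were used. Genes share reads among overlapping annotated 3′-UTRs: the 4007 members had 3466 distinct coordinates.

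The named genes (74, in 76 regions) were: per treatment, the 8 highest called ratios with at least 50 WT RIP reads and the 5 lowest with at least 50 KO RIP reads, with at least 10 reads in both Inputs; the 5 with most WT LPS Input reads (Ccl9, Sdc4, Ctsb, Il1rn and Efhd2); the 5 largest rises and falls with LPS; up to 4 members of each gene list by reads; and genes of the study. The members, lists and rules were chosen with earlier results of these data known. Alternatives were other scalings, read minimums, tests (edgeR 4.0.16 with an assumed spread, exact binomial, likelihood ratio), adjustments, criteria and subsets of regions. Scripts were checked on simulated data and run with Python 3.11.15, scipy 1.17.1, pysam 0.24.0 and R 4.3.3.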

Additional observations from a re-analysis of the deposited data

Results flagged for a closer look

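For each of the following named members, the WT over KO RIP log2 ratio differed between LPS and untreated cells after Benjamini-Hochberg adjustment over 7844 3′-UTRs. The test compares the reads of 4 single libraries, and no cause was tested. The naming rule gave this list, which does not stand for the class. Of 1831 members tested, 41 had a higher ratio with LPS and 23 a lower one, with a median difference of 0.14. The difference (LPS minus untreated) was −2.71 for Il1rn (adjusted p = 3.4e-10), −1.60 for Sdc4 (adjusted p = 5.1e-68) and −0.87 for Arhgef12 (adjusted p = 0.013). It was −0.71 for Efhd2 (adjusted p = 1.2e-10), −0.63 for Cpeb4 (adjusted p = 0.01), −0.60 for Mapkapk2 (adjusted p = 0.0024) and −0.54 for Spred1 (adjusted p = 0.0074). It was −0.37 for Arf3 (adjusted p = 0.048) and 0.53 for Btg1 (adjusted p = 0.03). A change of scaling moves the difference of every 3′-UTR by the same amount. Library totals move untreated ratios up by 0.84 and LPS ratios by 1.14, so each negative difference above becomes smaller in size and that of Btg1 larger. The adjusted p-values are those under scaling to the 3′-UTR sum.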

How the results depend on the processing

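No analysis paired over replicates was possible because each genotype, treatment and assay had 1 library, and no replicate could be left out. The listed replicate numbers mark lanes 7 and 8 of the same library. The libraries of a genotype came from 1 culture, within which RIP was compared with Input. The exact binomial and likelihood-ratio tests, 0.1 reads added in place of 1, 1 region per gene, 1 entry per set of coordinates, and the restriction to genes with no 3′-UTR predicted for activation kept each summary's direction and moved no percentage of calls by over 1.5 times. Members with under 10 reads in a pair, about which these libraries say little, were not tested. In the values below, percentages are of members tested, and the cause of a change was not tested unless the setting itself fixes it.

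With edgeR's exact test and an assumed coefficient of variation of 0.4 (and 0.2), WT over KO RIP calls fell untreated to 0.459% (3.88%) in the WT and 0.141% (1.34%) in the KO direction, and with LPS to 0.319% (4.75%) and 0.177% (1.45%). Input calls fell untreated to 0% (0.273%) and 0% (0.585%), and with LPS to 0.0387% (0.271%) and 0.0387% (0.387%). Calls of RIP over Input became 12% (on the RIP side, WT untreated), 10.1% (29.3%) in WT with LPS, 2.77% (12.1%) in KO untreated and 2.85% (12.4%) in KO with LPS. On the Input side they became 0.0355% (2.06%), 0.141% (3.31%), 0.0384% (1.73%) and 0.156% (0.821%) in the same order. Rises with LPS became 3.35% (8.26%) in WT and 3.25% (6.06%) in KO, and falls 4.4% (9.31%) and 6.17% (14.6%).

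Under TMM (and library totals), WT over KO RIP calls became 17.7% (46.7%) in the WT and 2.44% (0.565%) in the KO direction untreated, and 34% (72.6%) and 2.06% (0.319%) with LPS. Input-side calls in WT with LPS became 5.21% (3.52%). In KO, library totals gave 5.84% on the RIP and 25.5% on the Input side untreated, and 8.05% and 23.1% with LPS. The median RIP ratio became 0.27 untreated and 0.45 with LPS under median-of-ratios, 0.40 and 0.63 under TMM, and 1.01 and 1.43 under library totals. The Input-corrected median became 0.55 and 0.64 under TMM, 1.18 and 1.48 under library totals, and 0.52 with LPS under median-of-ratios.

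At least 50 reads in the pair gave 14.1% for untreated WT RIP calls, 0.243% for untreated WT Input calls, and 6.98% and 7.16% for Input-side calls in KO untreated and with LPS. The distance of the members' median from all 3′-UTRs then became 0.18 and 0.25. With 1 read as the minimum it became 0.48 and 0.58, and 0.63 and 0.57 after Input correction. The members' own RIP median then became −0.025 untreated, a reversal, and 0.069 with LPS, and the Input-side share in KO with LPS 3.03%. The first criterion alone gave 2.58% for untreated KO RIP calls, 0.117% and 0.742% for untreated Input calls, and 0.735% and 1.28% with LPS. Benjamini-Hochberg gave 2.17% for WT Input calls with LPS and 7.07% for the Input side in KO with LPS. Fold alone gave 0.846%, 3.83% and 2.97% for untreated WT and KO Input calls and that Input side. Classes of GC content in place of length lowered the smallest distance from 3′-UTRs with no prediction to 0.17 untreated and 0.27 with LPS.

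Library totals turned negative log2 ratios positive, by their construction, at 0.82 for Ywhaz, 0.68 for Arf6, 0.56 for Arf3, 0.72 for Cdkn1b, 0.23 for Lgmn and 0.31 for Rab7 untreated. With LPS they gave 0.40 for Ctsb, 0.38 for Pgam1, 0.65 for Mapkapk2, 0.50 for Sdc4, 0.81 for Nos2, 1.05 for Ccl9, 0.54 for Tnfaip3, 0.94 for Hif1a, 0.43 for Acod1, 0.92 for Ifngr2 and 0.88 for Efhd2. They also gave 1.06 for Arf6, 0.49 for Arf3, 0.60 for Stat2, 0.55 for Ifit2, 1.07 for Itgam, 1.02 for Rab5c, 0.59 for Lgmn, 0.91 for Rab7, 0.92 for Il1rn and 1.01 for the long Tbp region. Input correction turned Il1a to −0.18 and Cpeb4 to −0.29 with LPS.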
